A study of Macaca mulatta with 102 samples.

Results

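The shortest transcripts of the deposited rhesus macaque table, those whose locus spans fewer than 100 bases from start to end, were examined across mammary tissue and milk. Of the 42701 transcripts listed, 2057 met this length rule, 3898 spanned at least 100 and below 200 bases and 36746 spanned 200 bases or more. The rule used the annotated coordinates alone and no measured value. Levels are FPKM, fragments scaled to transcript length and to the number mapped, as the authors deposited them.

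RNA came from 6 lactating macaques, M1 to M6, at 30 and 90 days post-partum. Mammary biopsies (labelled Bx) were taken once from each animal, from M3, M4 and M6 at day 30 and from M1, M2 and M5 at day 90, so that biopsies of different days are also biopsies of different animals. Cells pelleted from milk were sequenced from all 6 animals at both days (12 samples), and the milk fat layer from M1, M2, M3 and M6 at day 30 and from all 6 animals at day 90 (10 samples). The study left out day 30 milk RNA of some animals as too poor for sequencing. It also reports lower RNA integrity in macaque milk fat than in milk cells or mammary tissue. Sample type and RNA integrity therefore cannot be told apart here, and integrity per sample was not at hand. A further 6 samples of day 90, labelled FatS10, FatsS10 or Skim10m, were taken to be the cell-free milk that the study describes for that day. The labels do not say so, and values for cell-free milk hold if this reading is right. Mothers were sedated with ketamine and given oxytocin before milking, and animals to be biopsied were then sedated further with dexmedetomidine and given lidocaine at the site. No experimental treatment separated the groups, and every sample was run 3 times on the sequencer. A biopsy holds several cell types, milk cells are a mixture, and milk fat carries RNA in cytoplasm enclosed with the fat globules. In such bulk samples fewer cells of a type and less RNA per cell cannot be told apart. The tables at hand did not pair these transcript identifiers with gene names, so the labelled tissues could not be checked against marker genes, and transcripts are given by Ensembl identifier and position on the assembly rheMac2. No sequence for them was at hand.

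Annotated transcripts of this length are mostly small non-coding RNAs, among them the hairpin precursors of microRNAs, small nucleolar RNAs that guide the modification of ribosomal RNA, and copies of small nuclear, transfer and ribosomal RNAs. Many lie inside introns of longer host genes, and most mature forms carry no poly(A) tail. The libraries were made from poly(A)-selected RNA with fragmentation, a preparation designed for messenger RNA. The deposited table gives no class beside its identifiers, and the classes of the members were not examined here.

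Most of these transcripts were listed at 0 throughout. In all 34 samples, 1812 of the 2057 (88.1%) had an FPKM of 0, and 245 (11.9%) were above 0 in at least 1 sample. Of the 245, 126 were above 0 in 1 sample, 85 in 2 to 9 samples, 23 in 10 to 33 samples and 11 in all 34. By comparison, 19.98% of transcripts of at least 100 and below 200 bases, 78.5% of those from 200 to below 1000 bases and 95.3% of those of 1000 bases or more were above 0 in at least 1 sample. Within the short class the detected share was 1 of 39 below 60 bases, 19 of 289 at 60 to 69, 40 of 397 at 70 to 79, 87 of 587 at 80 to 89 and 98 of 745 at 90 to 99 bases. The share was thus lowest for the shortest transcripts.

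A detection rested on little material in most cases. Of the 1213 pairs of a sample and a short transcript above 0 in it, 655 (54.0%) were above 0 in 1 of the 3 technical runs and 390 (32.2%) in all 3. Without the 11 transcripts found in every sample, 60 of 839 pairs (7.15%) were above 0 in all 3 runs. The typical level of a short transcript listed in a single run was high. Among transcripts that overlap no other row and that were above 0 in exactly 1 technical run of all samples, at a value of at least 0.01 FPKM, the median value in that run was 32.2 FPKM for the 84 below 100 bases. It was 10.1 FPKM for 216 of at least 100 and below 200 bases and 0.289 FPKM for 323 from 200 to below 1000 bases. For 267 of 1000 bases or more it was 0.126 FPKM, so this median was 256 times as high in the short class as in the longest. Low values did not fall on whole multiples of 1 step, so no read counts were recovered and the depth of each sample is unknown. Of 2161 run values of the short transcripts above 0, 132 lay below 1 FPKM, in 19 transcripts, and 96 below 0.01 FPKM, so that above 0 here includes values that are 0 for practical purposes.

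**Figure D1:**
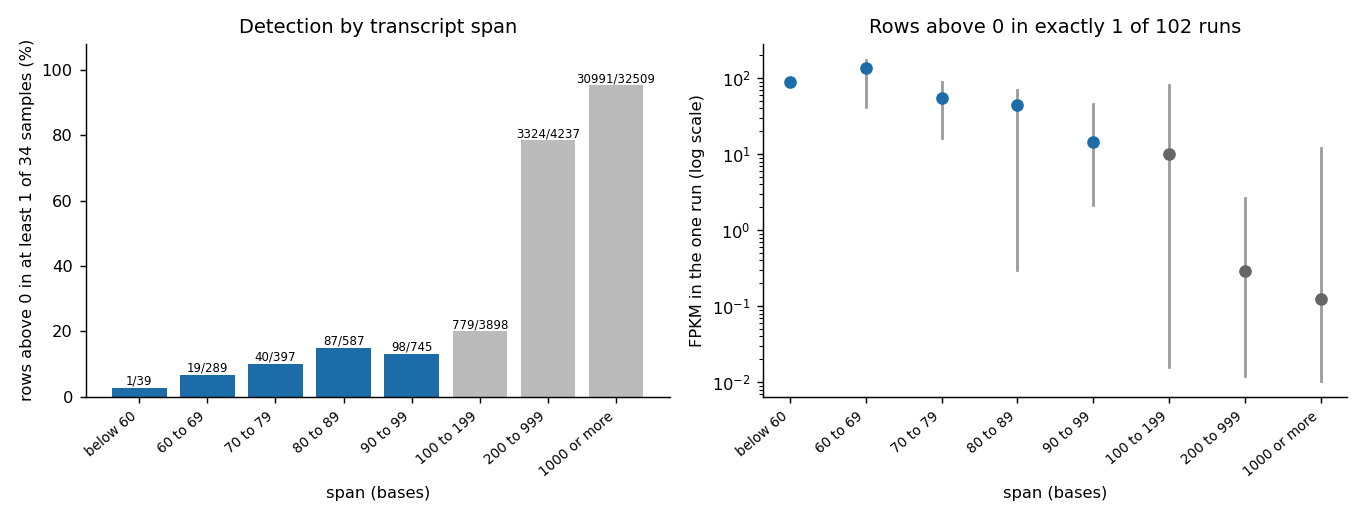
Detection and level in a single run by transcript span. Left, bars give the percent of rows above 0 in at least 1 of 34 samples, with the numbers above each bar. Right, points give the median and lines the range of FPKM (log scale) of non-overlapping rows above 0 in exactly 1 technical run. Blue marks spans below 100 bases, where the median fell from 136 FPKM at 60 to 69 bases to 14.5 FPKM at 90 to 99 bases.

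Biopsies held the most detected short transcripts and the smallest share of summed FPKM in them. The number above 0 was 44 ± 9.38 in biopsies (SD, n = 6), 37.3 ± 8.65 in milk cells (n = 12), 30.7 ± 8.86 in milk fat (n = 10) and 32.5 ± 4.28 in cell-free milk (n = 6). With the days of an animal averaged, the number was lower in milk fat than in the biopsy in 6 of 6 animals, and lower in milk cells in 5 of 6. The order turned when all 3 technical runs had to be above 0, with means of 9.50 in biopsies, 11.8 in milk cells and 12 in both milk fat and cell-free milk. Over transcripts of all lengths biopsies also held the most rows above 0 and milk cells came next by mean, with 28269 to 29991 rows above 0 in biopsies, 27040 to 29342 for milk cells, 25827 to 27960 for milk fat and 26368 to 27219 for cell-free milk. With both days of milk fat pooled, milk fat and cell-free milk stood in the opposite order there, at means of 26697 and 26659 rows. Cell-free milk was sampled at day 90 only. Within day 90 the order was the same, at 26437 rows in milk fat and 26659 in cell-free milk, and 28.7 and 32.5 short transcripts. The part of overall detection in the counts of short transcripts was not tested. Over whole types, 125 short transcripts were above 0 in some biopsy, 149 in some milk cell sample, 101 in some milk fat sample and 79 in some cell-free sample, and 37 were above 0 in all 4 types. The 42 found in biopsies and listed at 0 in all 28 milk samples were rarely repeated, since 37 of them were above 0 in 1 sample and none in more than 2 biopsies. Of the 120 found in milk and listed at 0 in all 6 biopsies, 89 were above 0 in 1 sample.

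The share of all FPKM held by the short transcripts was 0.765% ± 0.179 in biopsies (SD, n = 6), ranging from 0.409% to 0.888%. In milk cells it was 2.26% ± 0.946 (n = 12), ranging from 1.19% to 4.82%, and in cell-free milk 1.46% ± 0.529 (n = 6), ranging from 0.883% to 2.32%. In milk fat the share had a median of 2.10% and ran from 1.33% to 27.1%, with a mean of 5.19% ± 7.90 (n = 10). The highest value was the day 30 milk fat of M6, at 26.0% to 27.8% in its 3 technical runs, and without this sample the milk fat mean was 2.76% ± 1.94 (n = 9, left out after seeing the data). The share was higher in milk cells, milk fat and cell-free milk than in the biopsy of the same animal in 6 of 6 animals each, and lower in cell-free milk than in milk cells in 6 of 6 animals. Among milk samples the ranges overlapped, whereas the highest biopsy (0.888%) exceeded 1 milk sample, the cell-free milk of M1 (0.883%). Transcripts of at least 100 and below 200 bases held 1.16% ± 0.440 of FPKM in biopsies and 1.84% ± 0.705 in milk fat.

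**Figure D2:**
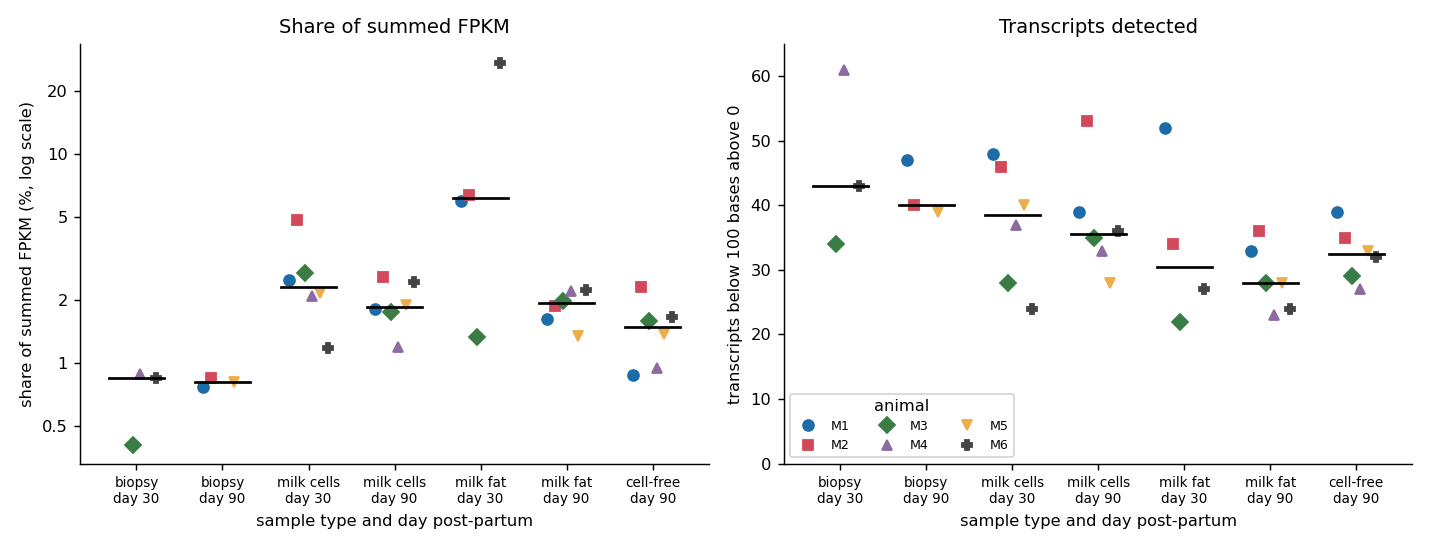
Share of summed FPKM (left, log scale) and number above 0 (right) of the 2057 transcripts below 100 bases in each of the 34 samples, by type and day. Each point is 1 sample, the symbol gives the animal and the line the group median. All biopsies lie below 0.9% and the day 30 milk fat of M6 stands alone at 27.1%.

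Sequencing pools, read here from the numbers in the sample titles, did not separate the types. In the pool of M1 and M2 the mean share was 0.813% in biopsies (n = 2), 2.93% in milk cells (n = 4), 3.94% in milk fat (n = 4) and 1.60% in cell-free milk (n = 2). In the pool of M3 and M4 it was 0.705% in biopsies (n = 3, with the biopsy of M5), 1.93% in milk cells (n = 4), 1.84% in milk fat (n = 3) and 1.27% in cell-free milk (n = 2). The third pool held 1 biopsy, at 0.848%, and its milk samples ran from 1.19% to 27.1%.

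A few transcripts carried nearly all of this signal. The 12 with the highest mean over the 4 types held 88.1% to 93.7% of the short-transcript FPKM in biopsies and 95.6% to 99.9% in milk. Without them the mean share of summed FPKM was 0.0637% in biopsies, 0.0388% for milk cells, 0.0235% for milk fat and 0.0229% for cell-free milk. Both ENSMMUT00000048394, 92 bases at chr19:22999704-22999795, and ENSMMUT00000052166, 92 bases at chrX:94021675-94021766, were above 0 in all 34 samples. So were ENSMMUT00000052199 (94 bases, chr20:30452380-30452473), ENSMMUT00000052947 (75 bases, chr20:23618907-23618981), ENSMMUT00000051415 (80 bases, chr2:123178536-123178615), ENSMMUT00000052292 (75 bases, chrX:62903585-62903659) and ENSMMUT00000052972 (79 bases, chr19:22512532-22512610). The locus of ENSMMUT00000052947 overlaps 4 other rows of the table, so that its reads may be shared with them, and the others of these 7 overlap none.

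The remaining 5 of the 12 had means of at most 605 FPKM in every type. They were ENSMMUT00000015386 (94 bases, chr7:108941799-108941892), ENSMMUT00000038196 (97 bases, chr17:17775889-17775985), ENSMMUT00000052115 (75 bases, chr20:19244230-19244304), ENSMMUT00000049382 (82 bases, chr19:10220172-10220253) and ENSMMUT00000051325 (77 bases, chr8:97198653-97198729). ENSMMUT00000052115 was above 0 in 33 samples and ENSMMUT00000051325 in 30. ENSMMUT00000049382, which overlaps 1 other row, was nominally above 0 in all 34 but fell as low as 0.000309 FPKM in milk fat.

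**Figure D3:**
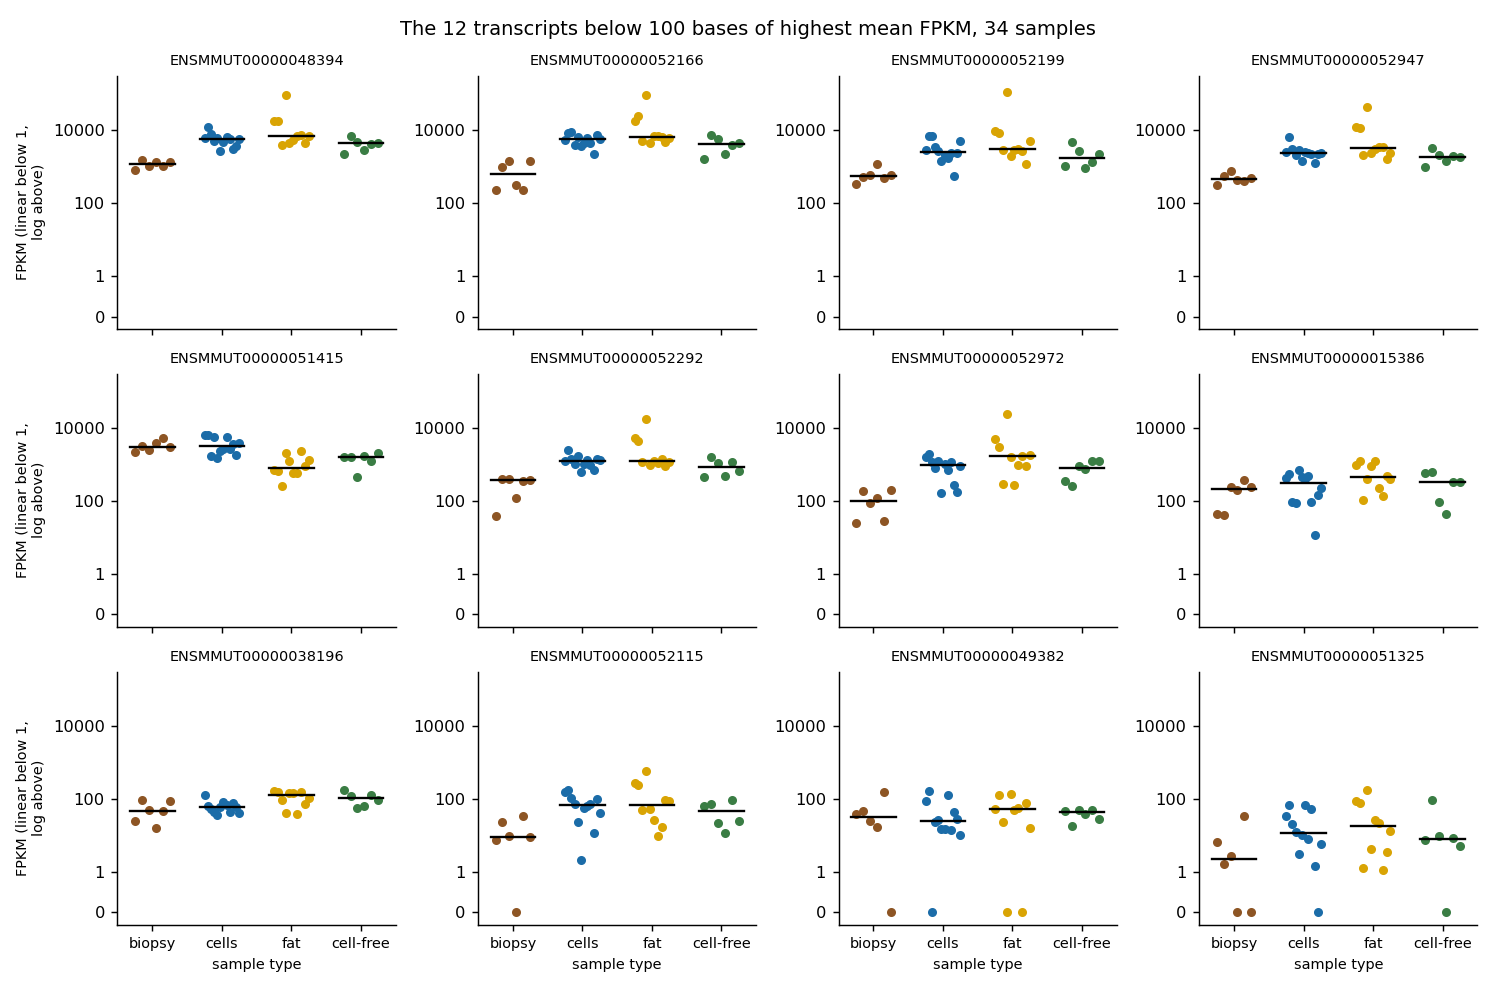
FPKM of the 12 short transcripts of highest mean in 34 samples (6 biopsies, 12 milk cell, 10 milk fat and 6 cell-free milk samples). Each point is 1 sample, the line is the median, and the axis is linear below 1 and logarithmic above. Of the 7 in the upper rows up to ENSMMUT00000052972, 6 are lowest in biopsies by median and ENSMMUT00000051415 is lowest in milk fat.

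Milk was compared with the gland to ask how closely milk RNA represents mammary tissue. Between milk fat and biopsies (6 animals each, days averaged), 110 of the 2057 short transcripts passed the filter of a mean FPKM of at least 1. Of these, 7 were called higher and 5 lower in milk fat (limma on log2 of scaled FPKM + 1, adjusted p below 0.05 and more than 3-fold). That is 10.9% of those tested, and 9.26% of all 13413 transcripts tested were called, 3.09% higher and 6.17% lower. The median log2 difference was -0.75 over the 110 and 0.07 over all tested, but a transcript at 0 in most samples passed the filter through the samples where it was high, so these figures describe the 110 and support nothing about the class.

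In ENSMMUT00000048394 the biopsies ran from 775 to 1534 FPKM with a median of 1182. Milk fat ran from 3928 to 91716 with a median of 6836, milk cells from 2620 to 12085 with a median of 5547, and cell-free milk from 2228 to 6554 with a median of 4221. Every milk sample lay above every biopsy. The log2 fold change against biopsies was 2.64 for milk fat (SE 0.35, limma adjusted p = 4.77e-05) and 1.92 for milk cells (SE 0.23, adjusted p = 3.46e-05). For cell-free milk it was 1.47 (limma adjusted p = 4.97e-04), below the 3-fold limit and so not called.

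ENSMMUT00000052166 ran from 224 to 1412 FPKM in biopsies, from 2193 to 8786 in milk cells, from 4352 to 87651 in milk fat and from 1580 to 7033 in cell-free milk, again without overlap with the biopsies. Its log2 fold change was 3.75 for milk fat (SE 0.48, limma adjusted p = 3.42e-05), 2.94 for milk cells (SE 0.43, adjusted p = 1.48e-04) and 2.41 for cell-free milk (SE 0.49, adjusted p = 0.00149). The largest increase in milk fat among the calls was that of ENSMMUT00000052972, at 24.99 to 199.8 FPKM in biopsies and 266 to 24011 in milk fat. Its log2 fold change was 4.04 for milk fat (SE 0.63, limma adjusted p = 1.66e-04), 2.87 for milk cells and 2.75 for cell-free milk, although milk cells reached down to 167 FPKM, within the biopsy range. All of these changes had the same direction in 6 of 6 animals.

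ENSMMUT00000052947 ran from 299 to 734 FPKM in biopsies and from 1570 to 42046 in milk fat, and ENSMMUT00000052292 from 39.2 to 406 in biopsies and from 889 to 17069 in milk fat. Both were called in all 3 milk types, with log2 fold changes in milk fat of 2.90 and 2.83. The call of ENSMMUT00000052292 in cell-free milk (1.60, limma adjusted p = 0.0201) was lost without M3 (adjusted p = 0.0502), and with the label FatS10 alone (adjusted p = 0.0551). ENSMMUT00000052199 was called in milk fat (2.62) and milk cells (1.90) but overlapped the biopsies, of which M1 at day 90 reached 1193 FPKM. The other call in milk fat and milk cells was ENSMMUT00000052115, higher in milk fat by 2.66 in 5 of 6 animals and in milk cells by 2.18 in 6 of 6. The call in milk cells did not hold with the animal as a block (limma adjusted p = 0.0523) or without M1, M3 or M5 (adjusted p = 0.116, 0.122 and 0.0872). Mean log2 differences between milk fat and biopsy were also taken within sequencing pools. This used the 6 transcripts called in milk fat and above 0 in every sample. The differences lay between 1.91 and 4.64 in the pool of M1 and M2. They lay between 2.53 and 3.82 in that of M3 and M4, and between 3.60 and 6.34 in M6. These 6 were chosen for their calls, and each rose from biopsy to milk fat in every animal. A positive sign in each pool was thus built in and does not test an effect of pool.

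Milk cells compared with biopsies (6 animals each) gave 121 short transcripts past the filter, of which 10 were called higher and 3 lower. That is 10.7% against a background of 6.07% of all transcripts tested, 1.82% higher and 4.25% lower. Besides the 7 named above, those higher were ENSMMUT00000036057, ENSMMUT00000049861 and ENSMMUT00000053057, named after their values were seen. The first 2 were listed at 0 in all 6 biopsies and were above 0 in 6 of 12 milk cell samples each, at no more than 28.1 and 18.3 FPKM. The count was 8 without M3. Cell-free milk compared with biopsies gave 129 past the filter, 5 higher and 5 lower, or 7.75% against a background of 7.45% (1.66% higher and 5.79% lower). Besides 4 named above, the other one higher was ENSMMUT00000050536, named after its values were seen. The biopsies are shared by these 3 comparisons, so they do not bear on each other independently. The limit of the filter given for milk fat holds for milk cells and cell-free milk too, so these shares support nothing about the class.

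**Figure D4:**
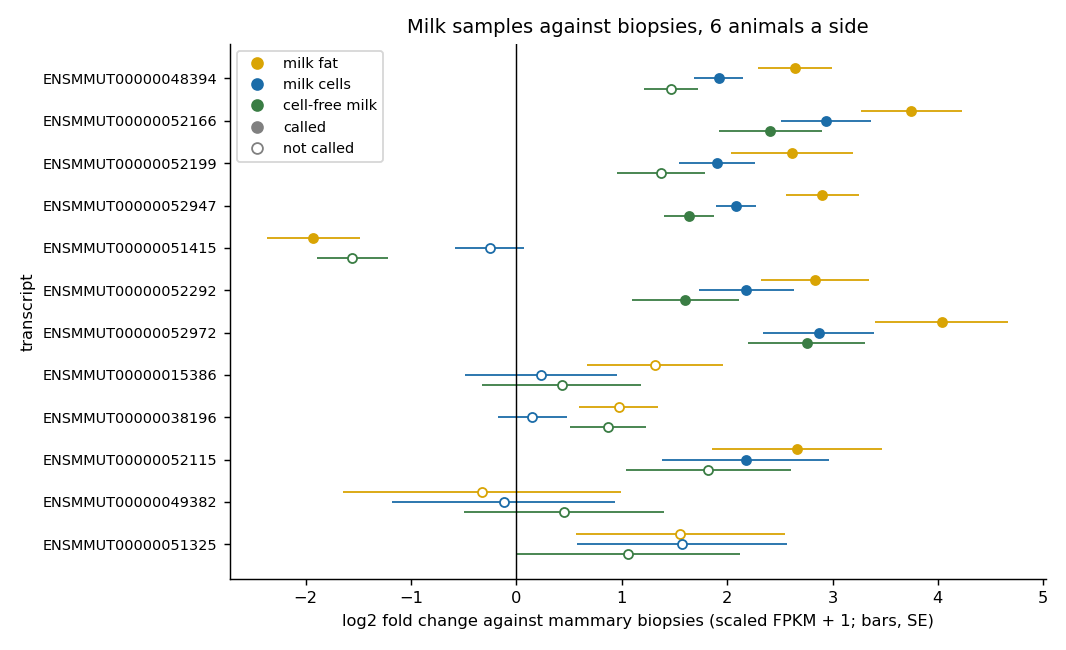
Log2 fold change (log2 of scaled FPKM + 1, bars SE) of the 12 short transcripts of highest mean in milk fat, milk cells and cell-free milk against the same 6 biopsies. Filled points passed adjusted p below 0.05 and 3-fold in limma. ENSMMUT00000051415 alone is filled on the lower side, at -1.93 in milk fat.

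ENSMMUT00000051415 went the other way. It was the most abundant short transcript in biopsies, at 2111 to 5166 FPKM with a median of 3041. Milk cells ran from 1501 to 6378 (median 3111), milk fat from 257 to 2351 (median 810) and cell-free milk from 458 to 1982 (median 1585). Cell-free milk lay wholly below the biopsies, milk fat overlapped them at its upper end and milk cells overlapped them throughout. Against biopsies the log2 fold change fell by 1.93 in milk fat (SE 0.44, limma adjusted p = 0.00257) and was -0.26 in milk cells (adjusted p = 0.546). In cell-free milk it was -1.56 (adjusted p = 0.00248), short of 3-fold. Within pools the difference between milk fat and biopsy was -3.24 for M1 and M2, -1.39 for M3 and M4 and -0.43 for M6. The negative sign was built in here too, since the transcript fell from biopsy to milk fat in every animal.

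It was also the single short transcript called between milk fat and milk cells, where 83 passed the filter and 1.20% were called against a background of 1.64% (0.569% higher and 1.07% lower). Its log2 fold change fell by 1.67 in milk fat (SE 0.43, limma adjusted p = 0.00851), lower in 6 of 6 animals. The count was 0 without M2 and 3 without M6, and with the animal as a block it was 2. The 6 milk-high transcripts showed log2 differences of 0.65 to 1.17 between milk fat and milk cells with limma adjusted p-values of 0.0808 to 0.323. Neither comparison of cell-free milk within day 90 called a short transcript. Against milk fat 72 passed the filter, with 6 at an unadjusted p below 0.05 in limma and 0.463% of all transcripts called, and the count was 1 without M1. Against milk cells 92 passed, with 3 at an unadjusted p below 0.05 and 0.292% of all transcripts called.

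The summed FPKM of the 6 milk-high transcripts (ENSMMUT00000048394, ENSMMUT00000052166, ENSMMUT00000052199, ENSMMUT00000052947, ENSMMUT00000052292 and ENSMMUT00000052972) can be set against ENSMMUT00000051415 within each sample, where any scaling cancels. The ratio ran from 0.484 to 1.72 in biopsies, from 2.20 to 17.4 in milk cells, from 4.10 to 36.6 in cell-free milk and from 9.54 to 179 in milk fat. No biopsy reached the lowest milk sample, a separation that the choice of these transcripts by their calls against biopsies built in. In milk fat the ratio was 58.9 to 179 at day 30 (n = 4) and 9.54 to 39.1 at day 90 (n = 6), without overlap, a description since the 6 were chosen for their calls. These 6 held 26.8% of all FPKM in the day 30 milk fat of M6. Without them the mean share of FPKM was 0.420% ± 0.119 in biopsies (n = 6), 0.436% ± 0.227 in milk cells (n = 12), 0.196% ± 0.0749 in milk fat (n = 10) and 0.203% ± 0.0739 in cell-free milk (n = 6).

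The 6 varied together across samples, a description since they were chosen for their calls and ENSMMUT00000051415 was set beside them for going the other way. ENSMMUT00000048394 ranged 118-fold over the 34 samples and ENSMMUT00000052947 ranged 141-fold, but the ratio of one to the other ranged 2.26-fold, with an SD of 0.29 on the log2 scale. Both levels were highest in the day 30 milk fat of M6, where ENSMMUT00000048394 stood at 91716 FPKM (next highest 17900). Ratios to ENSMMUT00000048394 had an SD of 0.55 to 0.997 for the other members of the 6, and of 1.93 for ENSMMUT00000051415. For these other members the ratio ranged from 6.56-fold to 13.8-fold over the samples. The transcripts lie on chromosomes 19, 20 and X, and no 2 of them within 10 kb of each other. The paper lists unnamed non-coding RNAs among its most abundant transcripts, seemingly higher in milk fat, and reports from a sequence search that they resemble human ribosomal RNAs. It prints no identifiers for them. Some of its mean levels by type lie close to those of ENSMMUT00000048394, ENSMMUT00000052166, ENSMMUT00000052199, ENSMMUT00000052947 and ENSMMUT00000052972. Another of its non-coding RNAs, lower in milk fat than in biopsies, lies close to ENSMMUT00000051415. Similar levels alone do not show that these are the same transcripts. Whether the sequences of the 6 are alike was not examined here.

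**Figure D5:**
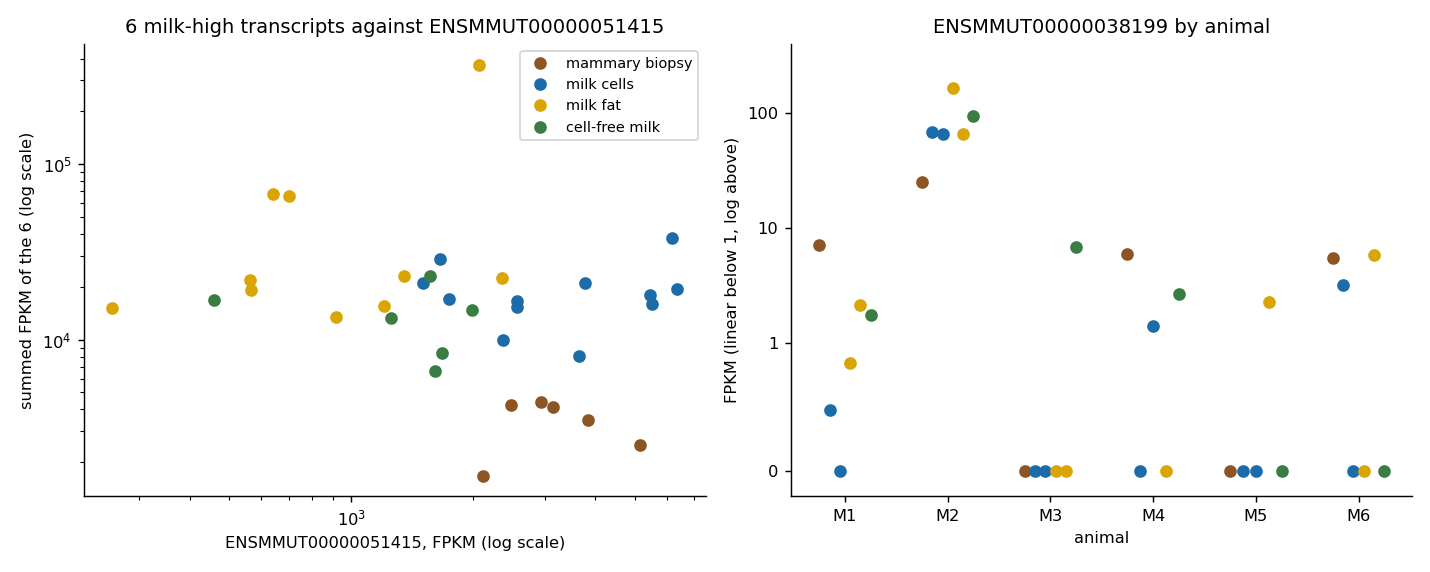
Left, summed FPKM of the 6 milk-high short transcripts against ENSMMUT00000051415 in 34 samples (both log scales). Biopsies sit at the lower right, with ratios of 0.484 to 1.72, and milk fat at the upper left, with 9.54 to 179. Right, FPKM of ENSMMUT00000038199 by animal (linear below 1, log above), where the 6 samples of M2 lie above all others.

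Some short transcripts were found in the gland and hardly in milk. ENSMMUT00000048377, 74 bases at chr14:1908080-1908153 with no overlapping row, was above 0 in all 6 biopsies, at 125 (M3), 104 (M4) and 27.0 (M6) FPKM at day 30 and 74.2 (M1), 34.4 (M2) and 62.6 (M5) at day 90. It was listed at 0 in 27 of the 28 milk samples and stood at 24.5 FPKM in the day 30 milk cells of M1, below every biopsy. It was called lower in milk fat (limma adjusted p = 4.50e-08), milk cells (adjusted p = 1.57e-06) and cell-free milk (adjusted p = 4.92e-08). The transcript passed the filter through the biopsies, and a group listed at 0 adds no spread, so these p-values overstate the evidence. At 70 to 79 bases the median value of transcripts listed in a single run was 54.5 FPKM in that run, so its biopsy levels may rest on few reads. No fold is given, since milk fat and cell-free milk are listed at 0.

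The other calls on the lower side, named after their values were seen, were ENSMMUT00000036926 in all 3 milk types, ENSMMUT00000049646 in all 3, ENSMMUT00000048399 in milk fat and cell-free milk, and ENSMMUT00000049255 in cell-free milk. Some of these were not low in all milk. ENSMMUT00000049255 reached 22.9 FPKM in biopsies, 33.9 in milk cells and 37.7 in milk fat. ENSMMUT00000048399 reached 15.6 FPKM in biopsies and 47.1 in milk cells. ENSMMUT00000036926 reached only 13.9 FPKM in biopsies and 10.7 in milk cells. ENSMMUT00000049646 (96 bases, chr10:66690996-66691091) was above 0 in 5 of 6 biopsies, at up to 163 FPKM, in 5 of 12 milk cell samples at up to 39.7, in 1 of 10 milk fat samples and in none of 6 cell-free samples. It has 3 short neighbours on chromosome 10, ENSMMUT00000049473, ENSMMUT00000048399 and ENSMMUT00000048369, of which the last ends at 66779724. Each of the 4 was above 0 in some biopsy and some milk cell sample, and the 3 neighbours were listed at 0 in all 16 milk fat and cell-free samples. Their summed level in biopsies was 94.8, 195 and 153 FPKM at day 30 (M3, M4, M6) and 9.01, 30.1 and 27.1 FPKM at day 90 (M1, M2, M5). The day 30 biopsies were thus higher without overlap, but day and animal cannot be told apart there and the stretch was chosen after its values were seen.

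Between days few differences were seen. In milk cells (6 against 6) none of 104 short transcripts past the filter was called in limma, with 1 at an unadjusted p below 0.05, and 0.0941% of all transcripts were called. In milk fat (6 at day 90 against 4 at day 30) none of 70 was called, with 11 at an unadjusted p below 0.05 and 0% of all transcripts called, and the count was 1 without M3. In biopsies (3 against 3, different animals) none of 118 was called, with 15 at an unadjusted p below 0.05 and 0% of all transcripts called. The biopsy count was 7 without M3 and 1 without M1 or without M6. In milk fat the 6 milk-high transcripts were lower at day 90 by log2 values of -1.45 to -2.08, with limma adjusted p-values of 0.913 to 0.932. The share of FPKM was lower at day 90 than at day 30 in 5 of 6 animals in milk cells and in 3 of 4 animals in milk fat.

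Differences between animals were tested over the days within a type. In milk cells 3 of 104 were called (moderated F test in limma), or 2.88% against 1.48% of all transcripts. In milk fat of the 4 animals with both days 6 of 66 were called, or 9.09% against 1.45%. A transcript at 0 in most samples passed the filter through the animal where it was high. These shares thus describe those tested and support nothing about the class. In milk cells the lowest adjusted p belonged to ENSMMUT00000048369 (9.71e-04), above 0 in M5 on both days (16.8 and 24.7 FPKM) and at 0 in the other 10 milk cell samples. It was followed by ENSMMUT00000036997 (limma adjusted p = 0.00273), at 9.04 and 11.8 FPKM in the same 2 samples. Both were listed at 0 in the biopsy, milk fat and cell-free milk of M5. Outside M5, ENSMMUT00000048369 stood at 43.2 FPKM in the biopsy of M3. ENSMMUT00000036997 stood at 6.26 FPKM in the day 30 milk fat of M1 and 11.2 in the cell-free milk of M4. In milk fat the lowest adjusted p belonged to ENSMMUT00000049266 (limma adjusted p = 6.91e-04), at 6.29 and 6.40 FPKM in M3. Next came ENSMMUT00000050835 (limma adjusted p = 0.00187), at 10.6 and 15.6 FPKM in M1. Outside milk fat, ENSMMUT00000049266 stood at 10.45 FPKM in the day 30 milk cells of M2. In cell-free milk it stood at 13.3 FPKM in M1 and 5.95 in M5. In M3 it was listed at 0 in biopsy and milk cells and at 8.51e-88 FPKM in cell-free milk. Its call thus describes milk fat and not M3 across sample types. The other calls in milk fat were ENSMMUT00000036057 and ENSMMUT00000050536, named after their values were seen, and the 2 transcripts described next. These calls rest on levels near the value at which a single run first lists such a transcript, and with a pseudocount of 0.1 all 3 calls in milk cells were lost (limma adjusted p = 0.0588 for ENSMMUT00000048369 and 0.122 for ENSMMUT00000036997).

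ENSMMUT00000038199, 97 bases at chr3:162961993-162962089 with no overlapping row, was called between animals in both types and was named after its values were seen. In M2 it stood at 25.3 FPKM in the biopsy, 68.1 and 65.3 in milk cells at days 30 and 90, 165.7 and 65.5 in milk fat and 94.1 in cell-free milk. In the 28 samples of the other animals it did not exceed 7.13 FPKM and was listed at 0 in 15. Every sample of M2 lay above all others, including the 6 samples of M1 in the same sequencing pool. The adjusted p was 0.0101 in milk cells and 0.0294 in milk fat (limma). In milk cells the call was lost with a pseudocount of 0.1 (adjusted p = 0.122) and with a filter of 10 FPKM (adjusted p = 0.399). In milk fat it was lost with a pseudocount of 0.1 (adjusted p = 0.0765), without a filter (0.121), with technical run 1 alone (0.123) and without M2 (0.560), and without M2 it did not pass the filter in milk cells.

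ENSMMUT00000015386 had a lower median in M3 and M4, a grouping chosen after its values were seen, and the ranges overlapped. In the 11 samples of M3 and M4 it ran from 11.8 to 218 FPKM with a median of 92.8, and in the 23 samples of the other animals from 140 to 1260 with a median of 425. M3 and M4 share a pool, in which the biopsy of M5 stood at 237 FPKM. It was called in milk fat (limma adjusted p = 0.0320), a test without M4, and not in milk cells of all 6 animals (adjusted p = 0.207). The call in milk fat was lost without a filter (adjusted p = 0.109) and without M1, M2 or M6 (adjusted p = 0.0593, 0.0841 and 0.0666). ENSMMUT00000050835 was above 0 in all 9 milk samples of M1 and M4, at 10.6 to 39.0 FPKM, in 1 of 19 milk samples of the other animals and in no biopsy. It overlaps 1 other row, and M1 and M4 come from different pools.

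The short transcripts found in every sample were more variable than longer ones within the same range of mean FPKM. The 11 above 0 in every sample had a median SD over the 34 samples of 1.44 on the log2 scale, compared with 0.46 for 4165 longer transcripts above 0 in every sample within the same range of mean FPKM and 0.70 for the 41 of these spanning at least 100 and below 200 bases. The median SD between technical runs of a sample was 0.94, 0.10 and 0.53, respectively, and that between animals within a type 0.82, 0.30 and 0.50. The most variable were ENSMMUT00000049382 (SD 1.97 over samples, 2.84 between runs), ENSMMUT00000052972 (1.92 and 1.46) and ENSMMUT00000052166 (1.61 and 0.33). The least variable were ENSMMUT00000038196 (0.74 and 1.73), ENSMMUT00000051415 (1.16 and 0.40) and ENSMMUT00000048394 (1.25 and 0.24). The abundant ENSMMUT00000048394 and ENSMMUT00000052166 therefore varied far more between samples than between runs, whereas ENSMMUT00000038196 and ENSMMUT00000049382 did not.

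The short transcripts were unevenly placed in the genome. Chromosome 7 held 316 of them, 10.6% of its rows, followed by chromosome 1 with 164. Within 10 kb of another short transcript lay 529, in 114 clusters, of which 70 clusters had no member above 0. Of the clustered transcripts 17.4% were above 0 in some sample, compared with 10.01% of the 1528 others. The cluster with the most detected members, on chromosome 7 at 3948961 to 4018075, held 32, of which 18 were above 0, 11 in milk fat, 7 in milk cells, 1 in cell-free milk and 0 in biopsies. These 18 showed 5 distinct profiles, since several had the same values in every run. In all, 34 detected short transcripts fell into 10 sets with identical FPKM in every run, each set of 1 length, the largest of 10 transcripts of 93 bases on chromosome 7 above 0 in a single run at 2.16 FPKM. The 245 detected transcripts therefore amount to 221 distinct profiles. Overlap with another row made little difference to detection, at 12.8% of the 1258 short transcripts overlapping none and 10.51% of the 799 overlapping at least 1.

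At the length limit levels were low on both sides. The 3 transcripts of 99 bases with the highest mean were ENSMMUT00000049427 (2.51 FPKM), ENSMMUT00000049501 (0.635 FPKM) and ENSMMUT00000049308 (0.612 FPKM). The 3 of 100 bases, just outside, were ENSMMUT00000049572 (11.2 FPKM), ENSMMUT00000033718 (0.792 FPKM) and ENSMMUT00000050417 (0.554 FPKM).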

How the data were processed

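The authors extracted total RNA, prepared TruSeq libraries with poly(A) selection, sequenced single reads of 100 bases in multiplexed pools, and trimmed adaptors and low-quality ends. They mapped reads to rheMac2 with TopHat and Bowtie and estimated FPKM per Ensembl release 67 transcript with Cufflinks. Their differential tests ran on read counts, which are not used here. Versions were not given in the sources used here. The FPKM are used as deposited. No untrimmed read can lie within a transcript shorter than it, and FPKM divide by length, so 1 read weighs more in a short transcript. FPKM carry no depth, so no counting interval was computed.

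For each of the 34 samples the mean of its 3 technical runs was taken. A further 6 columns matched no sample described here and were not used, and 0 pairs of columns were identical. Span was end minus start plus 1 of the deposited locus. None of the identifiers matched the name tables at hand. The members and lists were chosen with earlier results of these data known.

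Shares and detection used FPKM as deposited. Tests used limma 3.58.1 in R 4.3.3, with trend, on log2(FPKM divided by a median-of-ratios factor + 1) over all transcripts with a mean of at least 1 FPKM among the samples of a comparison, and p-values were adjusted over all of them by Benjamini-Hochberg. Tests were two-sided, or F tests between animals. A transcript was called at adjusted p below 0.05 and more than 3-fold, a scale that understates changes of low transcripts. Replicates were animals, with the days of an animal averaged for comparisons of types (cell-free milk, day 90 only). Python 3.11.15, pandas 2.3.3 and matplotlib 3.10.9 were also used. Samples were paired by animal in the labels, but the main fits between types and days held no term for the animal. Their p-values are therefore unpaired, and the animal as a block was an alternative. The correlation of deviations between types within animals averaged 0.162 for biopsies with milk fat to 0.452 for milk fat with cell-free milk, and was at least 0.0798 in every animal.

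Transcripts named were the 12 of highest mean over types; for each comparison of types, up to 2 called in each direction with the largest change and the same direction in every animal; for animals, the 2 of lowest adjusted p; the 3 most and least variable of those above 0 in every sample; and 3 on each side of the length limit. Others are said to be named after their values were seen.

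Alternatives were no scaling or scaling to the 75th percentile, pseudocounts of 0.1 and 10, no filter or a mean of at least 10, no trend, technical run 1 alone, transcripts overlapping no other row, the animal as a block, the label FatS10 alone, each animal left out, and spans below 90 bases.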

Additional observations from a re-analysis of the deposited data

Results flagged for a closer look

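Single samples that stood apart from their group by a gap test (Dixon's, 95% level) were sought in the share, the number above 0 and the 12 transcripts of highest mean, over 84 groups of 4 to 6 samples, and 11 were found. Chance alone flags about 1 in 20 groups where values are normally distributed and groups are independent. The FPKM were not transformed and are skewed, and the same samples recur across groups, so the 11 do not measure an excess over chance. The day 30 biopsy of M3 had the lowest share of its type, 0.409%, with the next biopsy at 0.772%. The day 30 milk fat of M6 stood at 91716 FPKM in ENSMMUT00000048394 (next highest 17900 of 4) and at 107391 FPKM in ENSMMUT00000052199 (next highest 9101). ENSMMUT00000052199 was also highest in the biopsy of M1, at 1193 FPKM (next 593).

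ENSMMUT00000052947 stood at 6511 FPKM in the day 30 milk cells of M2 (next highest 3036 of 6) and at 1262 FPKM in the day 90 milk cells of M4 (next lowest 2153). ENSMMUT00000038196 stood at 123 FPKM in the day 30 milk cells of M1 (next highest 65.3). In M2 at day 90, ENSMMUT00000049382 was at 157 FPKM in the biopsy (next highest 46.3) and 124 FPKM in milk cells (next highest 42.2), and ENSMMUT00000051325 was at 34.7 FPKM in the biopsy (next highest 6.64) and 93.8 FPKM in cell-free milk (next highest 9.42). Of these 11 values, 4 thus belong to M2 at day 90.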

How the results depend on the processing

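Of 2044 repeats of the log2 differences of named transcripts, 1989 kept their side of the threshold, 34 lost it and 20 gained it, and 1 changed sign, ENSMMUT00000038196 in milk fat against biopsies with technical run 1 alone (-0.21, limma adjusted p = 0.813). The sign also changed in 96 repeats that were past the threshold in neither fit. The numbers of called transcripts moved by over 1.5 times in these cases: milk cells against biopsies, 8 with a pseudocount of 10 and 7 with run 1 alone; milk fat against milk cells, 2 with a pseudocount of 0.1; cell-free milk against milk fat, 1 with run 1 alone; cell-free milk against biopsies, 16 without scaling (8 higher, 8 lower), 5 with a pseudocount of 10 and 6 with run 1 alone; days in biopsies, 1 with run 1 alone; animals in milk cells, 0 with a pseudocount of 0.1, 1 with 10 and 0 with a filter of 10 FPKM; animals in milk fat, 2 without a filter. The causes were not tested. Leaving out each animal gave 12 to 14 calls for milk fat against biopsies, 8 to 12 for milk cells against biopsies, 0 to 3 for milk fat against milk cells, 8 to 15 for cell-free milk against biopsies, 0 to 1 for cell-free milk against milk fat, 0 to 1 for days in milk fat, 0 to 7 for days in biopsies (7 without M3), 2 to 4 between animals in milk cells and 4 to 6 in milk fat. With the animal as a replicate block the counts were 14 (milk fat against biopsies), 11 (milk cells against biopsies), 2 (milk fat against milk cells) and 10 (cell-free milk against biopsies), and 0 in the other paired comparisons. No block could be fitted for the days in biopsies, which differ in animals. Without the day 30 milk fat of M6, left out after seeing the data, milk fat against biopsies gave 13 calls.

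The mean share was 0.467% in biopsies, 0.849% in milk cells, 1.38% in milk fat and 0.479% in cell-free milk for spans below 90 bases, and 0.0637%, 0.0388%, 0.0235% and 0.0229% without the 12 highest transcripts, as both remove abundant members. Leaving out each animal gave 0.740 to 0.836% for biopsies, 1.97 to 2.38% for milk cells, 2.83 to 6.08% for milk fat and 1.29 to 1.58% for cell-free milk. The mean number above 0 was 9.50 in biopsies, 11.8 in milk cells, 12 in milk fat and 12 in cell-free milk when every technical run had to be above 0, so the order of biopsies and milk turned. For transcripts overlapping no other row it was 30.3 in biopsies, 25.9 in milk cells, 22.9 in milk fat and 24.2 in cell-free milk. Leaving out each animal gave 40.6 to 46.0, 34.8 to 38.7, 27.8 to 32.1 and 31.2 to 33.6 in biopsies, milk cells, milk fat and cell-free milk. Depth per sample is unknown, so a value of 0 does not show absence.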
